A study of Mus musculus with 9 samples.

Results

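Dusp4, Dusp5, Dusp6, Spry1, Spry2, Spry4, Spred1, Etv4, Etv5 and Phlda1 are genes that cells are known to switch on when the kinase ERK is active. They were followed here in mouse liver. The 10 genes were taken by their symbols from the deposited tables, and all 10 were present among the 27945 genes with at least 1 count in any library. Polyadenylated RNA was sequenced in 9 libraries, 3 labelled control, 3 labelled model and 3 labelled treated. The title of the series names liver damage caused by gefitinib, a drug that blocks the kinase activity of the receptor for epidermal growth factor (EGFR). Nothing in the labels names a strain, genotype, sex, age, dose, time or batch, or what was given to the treated mice. The samples are called liver cells and the source liver, and separate animals are not stated, so p-values measure the spread between libraries, which may be technical in part.

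ERK is the last kinase of a relay that runs from growth factor receptors through RAS, RAF and MEK. Active ERK enters the nucleus and raises the transcription of genes whose products then shut the relay down again: dual-specificity phosphatases (Dusp) remove phosphate from ERK, while Sprouty (Spry) and Spred proteins act upstream at the receptor and RAS steps. The ETS-family factors Etv4 and Etv5 belong to the same transcriptional output and pass it on to further genes. In liver, EGFR and related receptors drive this relay in hepatocytes, and receptors such as Kdr and Tek drive it in endothelial cells.

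Both genes that rose in the treated livers, Dusp5 and Dusp6, have a RefSeq promoter window, and these windows are shown. Spry4 and Phlda1, which fell against control, have none, so windows of genes that rose and genes that fell were not compared. Among the 10 genes, 6 were found in the RefSeq promoter table (build GRCm38.p6): Dusp5, Dusp6, Spry1, Spry2, Spred1 and Etv5. Etv5 has more than 1 start, which gave 7 windows of 250 bases before the RefSeq start. Each window was searched on both strands for the CArG box bound by serum response factor, for the octamers TGAATGAA, TGAATGGA, TCAATGAA and TCAATGGA bound by the repressor Capicua (CIC), and for TGACTCA (AP-1), CCGGAAGT (ETS) and TGACGTCA (CRE). The Dusp5 stretch below is chr19:53528895-53529108 on the plus strand. It ends at base -37 from the RefSeq start, just before the gene in the deposited tables. The Dusp6 stretch is chr10:99262981-99263230 on the plus strand and ends at base -1. Capitals mark CArG boxes in Dusp5 and the CIC octamer in Dusp6.
Dusp5: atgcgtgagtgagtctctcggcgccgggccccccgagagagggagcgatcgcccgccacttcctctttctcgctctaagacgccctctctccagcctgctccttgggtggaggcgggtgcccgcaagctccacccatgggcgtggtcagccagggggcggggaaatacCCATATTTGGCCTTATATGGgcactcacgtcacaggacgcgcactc
Dusp6: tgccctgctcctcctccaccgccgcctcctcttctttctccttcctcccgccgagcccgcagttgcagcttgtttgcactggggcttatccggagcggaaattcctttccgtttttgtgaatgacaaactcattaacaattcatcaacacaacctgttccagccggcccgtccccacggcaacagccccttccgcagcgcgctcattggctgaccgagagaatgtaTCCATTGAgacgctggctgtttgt

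The Dusp5 window held 2 adjoining CArG boxes, at bases -82 to -73 and -72 to -63. A CArG box was present in 1.48% of 32536 distinct mouse windows of this length, and 6 windows (0.0184%) held at least 2. The Dusp6 window held 1 CIC octamer, written TCCATTGA on this strand, at bases -24 to -17. The Spry2 window also held 1, TTCATTGA, at bases -54 to -47. CIC octamers were present in 3.13% of windows. None of the searched elements was found in the windows of Spry1, Spred1 or Etv5, and the AP-1, ETS and CRE words, present in 4.45%, 2.90% and 1.56% of all windows, were in none of the 7. These matches describe letters in a short window. Binding was not measured, and a link between these elements and the levels of the genes was not tested.

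The libraries held 56440871 to 60665156 estimated counts each. A difference was called when its Benjamini-Hochberg adjusted p was under 0.05 over 18113 genes in edgeR's quasi-likelihood test, and levels are given as CPM, the counts of a gene scaled to a common library total, with TMM factors. Hepatocyte markers such as Alb were high in all 9 libraries, and their 10 genes summed to between 68300 and 101100 CPM. The library labelled model replicate 1 stood apart. Its 12 skeletal muscle markers summed to 222.8 CPM against at most 1.03 in the other 2 model libraries and 0.769 to 1.55 in controls, where Myh1, Myh2, Tnnc2, Tnni2 and Ckm were at 0. The 3 treated libraries held 148.8 to 192.0 CPM of these markers. Model replicate 1 was also the lowest of the 9 libraries for 5 of the 10 genes (Dusp4, Dusp6, Spry1, Spry4 and Etv4), for Dusp4 tied at 0 with control replicate 1. The comparisons of the 10 genes and of the pathway genes named by smallest p with the model group are therefore also given without it. Those fits leave muscle RNA high in the treated libraries only, so muscle RNA and the treated group cannot be told apart there. Of the 12 muscle markers, 12 were then called higher in treated than in model, and 0 with all libraries. Against control the same counts were 12 and 0.

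The 10 genes did not move as a block. Against control, the model livers had 0 of the 10 higher and 2 lower (Spry4 and Phlda1). Against model, the treated livers had 2 higher (Dusp5 and Dusp6) and 0 lower. Against control, the treated livers had 2 higher (Dusp5 and Dusp6) and 2 lower (Spry4 and Phlda1).

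Over all genes, 1.12% were called between model and control (0.519% higher and 0.596% lower). Between treated and model 9.65% were called (5.21% higher and 4.44% lower), and between treated and control 17.8% (9.36% higher and 8.47% lower). The median log2 fold change of the 10 genes was -0.43, 0.27 and -0.19 in these comparisons, beside -0.001, 0.005 and -0.009 over all genes tested. The library ranges of the groups did not overlap for 4 of the 10 genes between model and control, 4 between treated and model and 5 between treated and control. The same held for 20.0%, 31.2% and 37.3% of all genes tested. The 3 comparisons share libraries, so their counts are not independent of each other.

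**Figure D1:**
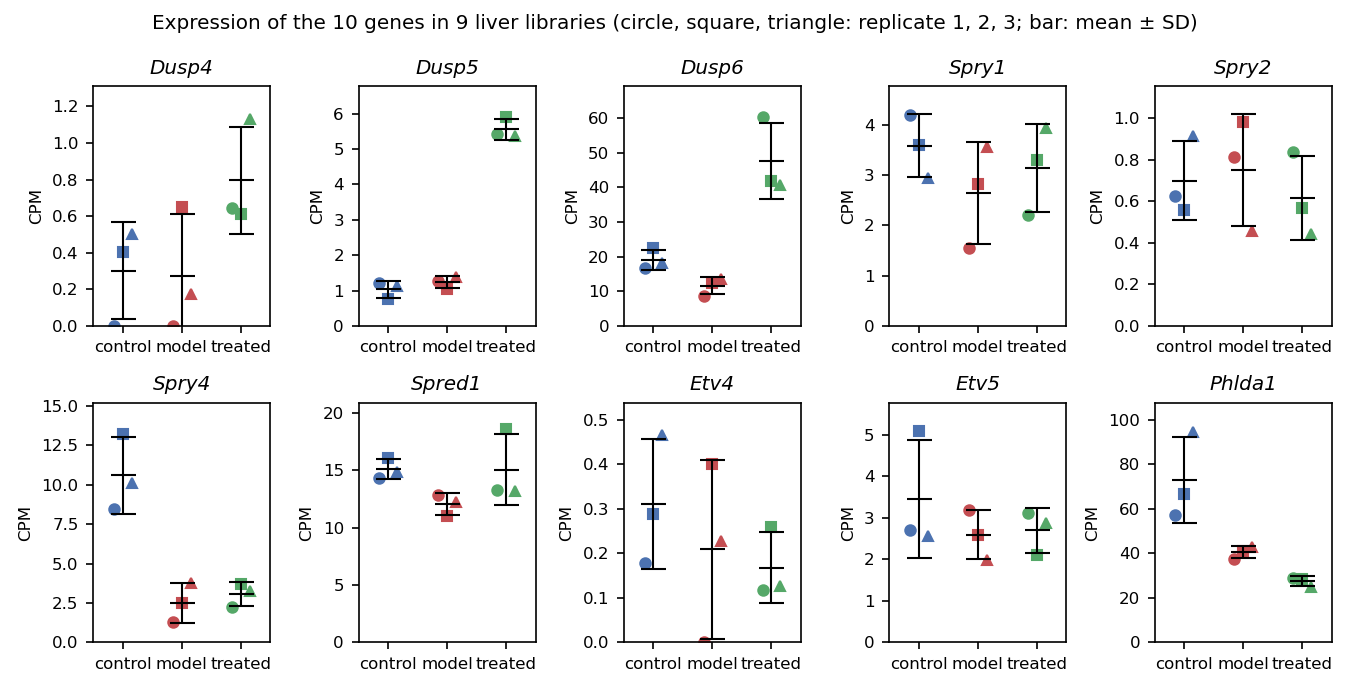
CPM of the 10 genes (vertical axis, from 0) in the control, model and treated groups, with 1 symbol per library and the mean ± SD of 3 libraries as black bars, cut at 0 where they reach below it. Dusp5 and Dusp6 are highest in all 3 treated libraries, while Spry4 and Phlda1 are highest in all 3 control libraries.

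Among the phosphatases, Dusp6 is the cytoplasmic one that acts on ERK with high selectivity. It was measured at 16.7, 22.4 and 18.1 CPM in the controls, 8.75, 12.5 and 13.5 in the model libraries and 60.3, 41.9 and 40.7 in the treated libraries. All treated libraries lay above all others, and all model libraries lay below all controls. Dusp6 rose 4.12-fold from model to treated (log2 fold change 2.04, SE 0.21, 95% interval 1.59 to 2.49, edgeR adjusted p = 0.000371). From control to treated it rose 2.50-fold (log2 1.32, SE 0.20, edgeR adjusted p = 0.0015). The gap between model and control did not pass the test: its log2 fold change was -0.72 (SE 0.20, 95% interval -1.16 to -0.28) with an edgeR adjusted p of 0.123. Only DESeq2 among the alternatives called it (adjusted p = 0.0253). Without model replicate 1 the log2 fold change was 1.88 from model to treated (edgeR adjusted p = 0.00188) and -0.55 from control to model (edgeR adjusted p = 0.279). Dusp6 lies at chromosome 10, 99263231 to 99267489, on the plus strand of GRCm38, and 92.9% to 99.4% of its FPKM in each library came from its 3-exon coding transcript of 2796 bases.

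Dusp5, a nuclear phosphatase of ERK, was low in control and model liver. It stood at 1.22, 0.750 and 1.14 CPM in the controls and at 1.28, 1.05 and 1.38 in the model libraries, and these ranges overlapped. The treated libraries held 5.43, 5.91 and 5.37 CPM, each about as high as the next and well above every other library. Dusp5 rose 4.50-fold from model to treated (log2 fold change 2.17, SE 0.28, 95% interval 1.56 to 2.78, edgeR adjusted p = 0.00113) and 5.37-fold from control to treated (log2 2.43, SE 0.28, edgeR adjusted p = 0.000303). From control to model the log2 fold change was 0.26, with a 95% interval of -0.35 to 0.86 and an edgeR adjusted p of 0.767. Without model replicate 1 the rise from model to treated was 2.19 on the log2 scale (edgeR adjusted p = 0.00742). Dusp5 has 1 transcript in the tables, of 4 exons, at chromosome 19, 53529109 to 53542431, plus strand. The gene Gm50394 overlaps it on the opposite strand and held at most 5 counts in any library. The strand setting of the counting is not given in the sources used here, so reads of such partners cannot be told apart.

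Dusp4, another nuclear phosphatase that acts on ERK, was close to the detection limit, with 253 counts over all 9 libraries. Its levels were 0, 0.404 and 0.504 CPM in the controls, 0, 0.649 and 0.175 in the model libraries and 0.645, 0.611 and 1.13 in the treated libraries. The treated values lay above the controls, but no comparison passed the test. From control to treated the log2 fold change was 1.39 (SE 1.33, 95% interval -1.58 to 4.36, edgeR adjusted p = 0.534), and from model to treated it was 1.52 (95% interval -1.45 to 4.50, edgeR adjusted p = 0.553). The last value rested on single model libraries: it was 3.15 without model replicate 2, 0.94 without model replicate 1 and 2.84 with limma-voom. From control to model the log2 fold change was -0.13 (edgeR adjusted p = 0.985), and 0.45 without model replicate 1. These intervals hold changes as large as those of Dusp5 and Dusp6, so at this depth a like rise of Dusp4 cannot be told from no change. Dusp4 has 1 transcript of 4 exons, at chromosome 8, 34807297 to 34819894, plus strand.

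Spry4 was the Sprouty gene that moved, and it moved the other way. Sprouty proteins hold back signalling between receptor and RAF. Spry4 was measured at 8.45, 13.2 and 10.1 CPM in the controls. The model libraries held 1.28, 2.48 and 3.78 CPM and the treated libraries 2.26, 3.70 and 3.27, all below the lowest control. Spry4 was 4.21-fold lower in model than in control (log2 fold change -2.07, SE 0.37, 95% interval -2.88 to -1.27, edgeR adjusted p = 0.0267). It was 3.44-fold lower in treated than in control (log2 -1.78, SE 0.36, edgeR adjusted p = 0.00665). Treated and model overlapped, with a log2 fold change of 0.29 and a 95% interval of -0.49 to 1.08 (edgeR adjusted p = 0.69). That value was -0.03 without model replicate 1. The call between model and control was lost when control replicate 2 (adjusted p = 0.0855), control replicate 3 (0.0653) or model replicate 2 (0.114) was left out of the edgeR fit. It was kept without model replicate 1 (log2 -1.76, edgeR adjusted p = 0.0492). Spry4 has 1 transcript of 2 exons, at chromosome 18, 38586247 to 38601415, minus strand.

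The other Sprouty and Spred genes passed no test. Spry1, which acts at the same step, was measured at 4.20, 3.60 and 2.95 CPM in controls, 1.55, 2.83 and 3.55 in model and 2.20, 3.30 and 3.94 in treated libraries, with overlap between all groups. Its log2 fold change was -0.44 from control to model (95% interval -1.19 to 0.31), 0.25 from model to treated (-0.50 to 1.00) and -0.19 from control to treated (-0.94 to 0.56), with edgeR adjusted p of 0.647, 0.726 and 0.766. It was -0.17 from control to model and -0.02 from model to treated without model replicate 1. The split between its 2 coding transcripts differed within groups: the 2-exon transcript held all of the Spry1 FPKM in control replicates 1 and 2 and in all model libraries. It held none in control replicate 3, and 67.4%, 0.0% and 8.07% in the treated libraries. The gene Gm42922 overlaps Spry1 on the opposite strand, with at most 21 counts per library. Spry1 lies at chromosome 3, 37639947 to 37644598, plus strand.

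Spry2, at chromosome 14, 105891947 to 105896819 on the minus strand, was scarce: 0.626, 0.558 and 0.914 CPM in controls, 0.811, 0.982 and 0.455 in model and 0.836, 0.565 and 0.441 in treated libraries. The groups overlapped throughout, and the log2 fold changes were 0.10, -0.29 and -0.19 with edgeR adjusted p of 0.962, 0.793 and 0.849. The intervals ran from -0.99 to 1.19, -1.38 to 0.81 and -1.28 to 0.91. Spry2 gave 0.04 from control to model and -0.23 from model to treated without model replicate 1. Spred1, which recruits the RAS inactivator neurofibromin, was measured at 14.4, 16.1 and 14.8 CPM in controls, 12.9, 11.1 and 12.3 in model and 13.3, 18.7 and 13.2 in treated libraries. Its model libraries lay just below all the others. The difference did not pass the test against control (log2 -0.32, 95% interval -0.66 to 0.02, edgeR adjusted p = 0.391) or against treated (0.32, -0.02 to 0.66, edgeR adjusted p = 0.238), and these values were -0.37 and 0.37 without model replicate 1. Treated and control Spred1 differed by at most 0.34 on the log2 scale in either direction by the 95% interval (edgeR adjusted p = 0.995). Spred1 lies at chromosome 2, 117121374 to 117182279, plus strand.

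The ETS genes gave no call. Etv5 was measured at 2.72, 5.10 and 2.56 CPM in controls, 3.19, 2.60 and 2.00 in model and 3.11, 2.09 and 2.88 in treated libraries. Control replicate 2 was the highest and the groups overlapped. The log2 fold changes were -0.41 (95% interval -1.14 to 0.32), 0.06 (-0.68 to 0.79) and -0.36 (-1.09 to 0.37), with edgeR adjusted p of 0.658, 0.949 and 0.515. The Etv5 values were -0.59 from control to model and 0.23 from model to treated without model replicate 1. Etv4, with 120 counts in all, was measured at 0.179, 0.288 and 0.467 CPM in controls, 0, 0.400 and 0.228 in model and 0.117, 0.260 and 0.126 in treated libraries. Its intervals spanned -3.10 to 1.97, -2.87 to 2.23 and -3.43 to 1.66 on the log2 scale (edgeR adjusted p of 0.895, 0.911 and 0.663), so changes up to several fold in either direction could not be seen at this depth. Its log2 fold change was -0.56 from control to model and -0.32 from model to treated, and 0.01 and -0.90 without model replicate 1. Etv5 lies at chromosome 16, 22381309 to 22439719, and Etv4 at chromosome 11, 101769742 to 101785371, both on the minus strand.

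Phlda1, a pleckstrin-homology-like protein, was the most abundant of the 10 genes in control liver and stepped down through the groups. It was measured at 57.4, 66.7 and 94.4 CPM in the controls, 37.5, 41.2 and 42.6 in the model libraries and 29.1, 28.7 and 24.7 in the treated libraries, and no ranges overlapped. From control to treated it was 2.65-fold lower (log2 fold change -1.41, SE 0.16, 95% interval -1.77 to -1.04, edgeR adjusted p = 0.000306). From control to model it was 1.80-fold lower (log2 -0.85, SE 0.16, edgeR adjusted p = 0.0361). This second call was lost in 11 of 19 alternatives. Among these were the edgeR fits without control replicate 2 (adjusted p = 0.0702), control replicate 3 (0.064), model replicate 1 (log2 -0.80, adjusted p = 0.113), model replicate 2 (0.122), model replicate 3 (0.106) or treated replicate 2 (0.0543). The difference between treated and model was -0.56 on the log2 scale (95% interval -0.91 to -0.20) and just missed the threshold (edgeR adjusted p = 0.0547), and -0.61 without model replicate 1 (edgeR adjusted p = 0.101). It was called in 7 of 19 alternatives, among them the edgeR fits without control replicate 1 (adjusted p = 0.0343) or control replicate 3 (0.0128). Phlda1 lies at chromosome 10, 111506286 to 111508645, plus strand, and its coding transcript gave 75.1% to 89.3% of its FPKM. Gm28592 overlaps it on the opposite strand with at most 24 counts per library.

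**Figure D2:**
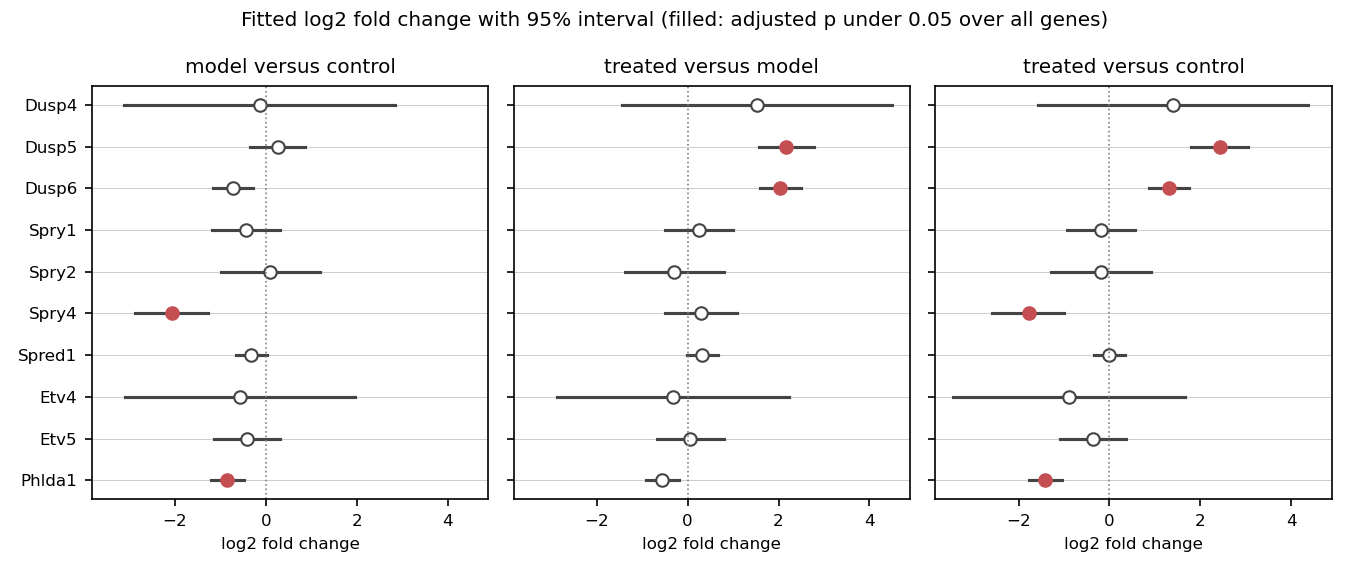
Fitted log2 fold change (horizontal axis) of each gene in the 3 comparisons, with its 95% interval as a line and a filled point where the edgeR adjusted p over all genes is under 0.05. Dusp5 and Dusp6 lie above 0 in treated livers, Spry4 and Phlda1 lie below 0 against control, and the lines of Dusp4 and Etv4 are the widest.

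Levels between genes were compared per length, as FPKM. In control liver the order of mean FPKM was Phlda1 (27.3, range 22.3 to 35.5), Dusp6 (5.02, range 4.57 to 5.71), Spred1 (1.84) and Spry4 (1.84), then Spry1 (1.02), Etv5 (0.691), Dusp5 (0.345), Spry2 (0.276), Dusp4 (0.0886) and Etv4 (0.0803). Library ranges did not overlap between Phlda1 and Dusp6 or between Dusp6 and the next genes, while Spred1 and Spry4 lay within each other's spread. In model liver Phlda1 (15.7), Dusp6 (3.17) and Spred1 (1.52) kept the top places, and Spry4 (0.455) stood behind Spry1 (0.781) and Etv5 (0.537), from which its range of 0.221 to 0.687 was not separate. In treated liver Dusp6 came first with 14.8 FPKM (range 12.2 to 19.3), and Phlda1 followed with 12.1 (range 10.5 to 13.2), a pair whose ranges overlapped. Dusp5 (2.18) came next and did not separate from Spred1 (2.15), while Spry4 was at 0.621. Averaged over the 9 libraries, the 10 genes ran from Phlda1, above 90.0% of the tested genes, and Dusp6, above 80.0%, down to Dusp4, above 14.5%, and Etv4, above 6.16%.

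**Figure D3:**
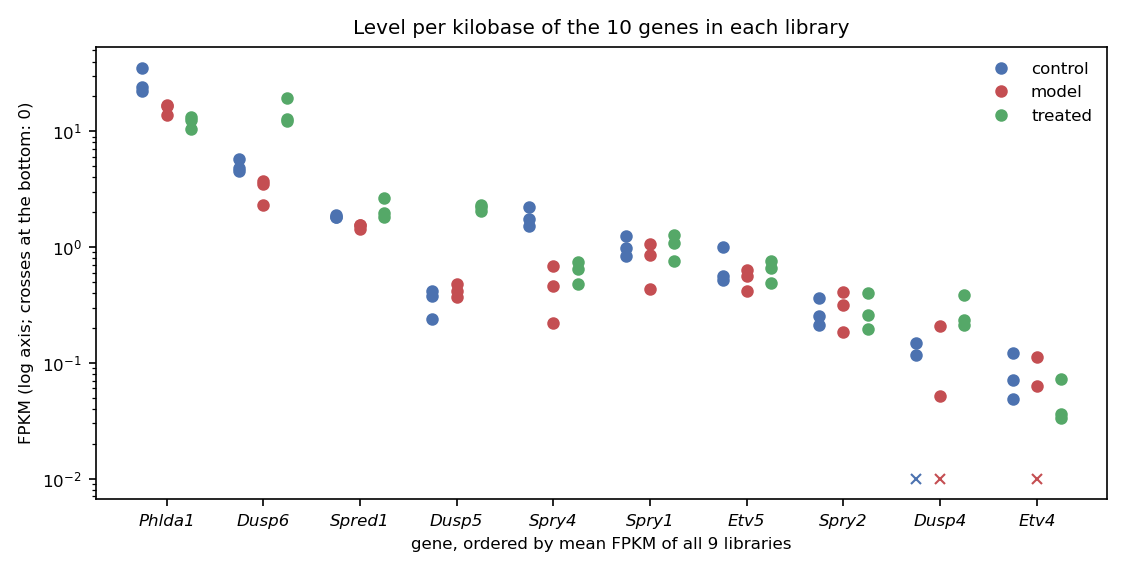
FPKM of the 10 genes (vertical log axis, values of 0 drawn as crosses at the bottom) in each of the 9 libraries, coloured by group and ordered by the mean over all libraries. Treated Dusp6 reaches the level of Phlda1, and treated Dusp5 reaches that of Spred1.

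Ratios within a library write the same values without reference to library size. The pairs below were called in opposite directions between treated and control, so their ratios re-express those calls and add no support. The FPKM of Dusp6 over that of Spry4 was 2.57 to 3.00 in the controls, 5.41 to 10.4 in the model libraries and 17.2 to 40.7 in the treated libraries. The FPKM of Dusp6 over that of Phlda1 was 0.135 to 0.236 in controls and 0.164 to 0.222 in model libraries, which overlapped, and 1.03 to 1.46 in treated libraries. A ratio shows that 2 genes changed unequally and not which of them moved. With 3 libraries against 3, an exact permutation test of such a ratio could not reach 0.05, and none was run.

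As a description over 9 libraries that fall into 3 groups, Pearson's r of log2 CPM was 0.82 between Dusp5 and Dusp6, 0.75 between Spry4 and Phlda1, -0.80 between Dusp5 and Phlda1 and 0.06 between Dusp6 and Spry4. Among 13357 other tested genes with a mean of at least 1 CPM, the nearest to Dusp6 were Smarcad1 (r = 0.987), Gm9299 (0.979) and Ralgapb (0.974). Their span was far smaller: Smarcad1 averaged 11.4 CPM in control, 9.99 in model and 13.6 in treated livers. The nearest to Spry4 were Bok (0.946), Rab14 (0.938) and Plpp1 (0.937). Plpp1 had a span like that of Spry4, with 9.82 ± 1.66, 1.87 ± 0.552 and 2.59 ± 1.15 CPM (SD, n = 3) in control, model and treated livers. The nearest to Etv5 were Gm12543 (0.932), Actn4 (0.916) and Edc3 (0.904).

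The rest of the pathway was described by lists of receptors, ligands, the RAS to ERK core, other negative regulators and other genes known to respond to ERK. Of all genes tested, 1.12% were called between model and control, 9.65% between treated and model and 17.8% between treated and control. Among the 17 receptors, 0 rose and 2 fell from control to model. These were Kdr, the main vascular endothelial growth factor receptor (34.3 ± 4.23 to 10.6 ± 0.955 CPM, SD, n = 3, edgeR adjusted p = 0.0427), and Tek, the angiopoietin receptor (10.6 ± 1.11 to 3.37 ± 0.203 CPM, edgeR adjusted p = 0.0068). From model to treated, 1 receptor rose and 5 fell, and from control to treated 1 rose and 7 fell, with a median log2 fold change of -0.52. Axl, the Gas6 receptor, was the one that rose (log2 0.88 from model to treated, edgeR adjusted p = 0.0182). That call was lost without model replicate 1 (log2 0.88, edgeR adjusted p = 0.0676), while Axl also rose from control to treated (1.15, edgeR adjusted p = 0.00258). Fgfr3 (-0.93) and Erbb3 (-0.73) were among those that fell from model to treated (edgeR adjusted p of 0.00423 and 0.0129). Without model replicate 1 or without model replicate 3, 2 receptors in place of 6 were called from model to treated, and 3 without treated replicate 1. Between control and model, 1 in place of 2 was called when any library other than treated replicates 1 and 3 was left out. Egfr itself was measured at 499.3, 270.4 and 365.6 CPM in controls, 452.6, 697.7 and 636.7 in model and 371.2, 429.3 and 606.3 in treated libraries. The Egfr groups overlapped and no Egfr comparison passed (lowest edgeR adjusted p = 0.305).

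Among 14 tested ligands, 0 were called between model and control (3 at an unadjusted p under 0.05, 2 by DESeq2 and 0 by limma-voom). From model to treated 6 ligands rose and 1 fell, and from control to treated 6 rose and 2 fell. The share of all genes called was 9.65% and 17.8% in these comparisons. Tgfa, a ligand of EGFR, rose from 17.3 ± 2.28 to 37.4 ± 7.76 CPM between model and treated (SD, n = 3, log2 fold change 1.11, edgeR adjusted p = 0.00196), and Gas6 rose by 0.77 (edgeR adjusted p = 0.00842). Vegfa fell by 0.48 on the log2 scale (edgeR adjusted p = 0.0214), and Fgf1 fell by 1.15 from control to treated (edgeR adjusted p = 0.0084). The count of 7 ligands called between model and treated came to 3 without model replicate 1, model replicate 3 or treated replicate 1, and to 4 without model replicate 2 or treated replicate 3.

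The median log2 fold change of the 20 core genes was 0.01 from control to model and 0.08 from model to treated. Between model and control 0 were called by edgeR, DESeq2 or limma-voom, and 0 had an unadjusted p under 0.05. From model to treated 3 rose and 0 fell, and from control to treated 3 rose and 1 fell, with a median log2 fold change of 0.05. The share of all genes called was 9.65% from model to treated and 17.8% from control to treated. Mapk3, which encodes an ERK kinase, rose from 29.4 ± 1.40 to 46.7 ± 4.92 CPM between model and treated (SD, n = 3, log2 0.67, edgeR adjusted p = 0.0078), and Nras rose by 0.60 (edgeR adjusted p = 0.00865). Araf was 0.32 lower on the log2 scale in treated than in control livers (edgeR adjusted p = 0.0242).

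Of 21 other tested negative regulators, 1 rose from control to model. From model to treated 5 rose and 1 fell, and from control to treated 4 rose and 0 fell. The share of all genes called in these comparisons was 1.12%, 9.65% and 17.8%. Dusp8, a phosphatase that acts mainly on the stress kinases JNK and p38, had the largest change among the called genes of this list. Its level was 0.178 ± 0.0935 CPM in control, 0.905 ± 0.376 in model and 11.4 ± 2.76 in treated livers (SD, n = 3), with edgeR adjusted p of 0.0358, 0.000536 and 3.61e-05 for control to model, model to treated and control to treated. Dusp16, which also acts on JNK and p38, rose from model to treated (log2 1.01, edgeR adjusted p = 0.00541). The phosphatase genes Dusp2 (log2 2.66, edgeR adjusted p = 0.0109) and Dusp1 (2.28, edgeR adjusted p = 0.0421) also rose from model to treated. From control to treated Dusp2 was called (1.65, edgeR adjusted p = 0.044) and Dusp1 was not (0.99, edgeR adjusted p = 0.243). Dusp3, Dusp7 and Dusp10 were not called from model to treated. Lrig3 fell (-0.78, edgeR adjusted p = 0.0231), and Phlda3 rose from control to treated (2.83, edgeR adjusted p = 0.00595). Dusp8 between control and model was not called without any 1 of the 3 controls or without model replicate 3. The 6 calls from model to treated came to 4 without model replicate 1, all of them rises in place of 5. They also came to 4 without treated replicate 2 or treated replicate 3. Whether Dusp1 and Dusp2 kept their calls in those fits is not given here. The 4 calls between treated and control came to 2 without control replicate 1, control replicate 2 or treated replicate 2.

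Most of the other ERK-responsive genes rose in treated livers. Of 23 tested, 14 rose and 0 fell from model to treated (median log2 fold change 1.46), and 15 rose and 2 fell from control to treated (median 1.67). Over all genes tested, 5.21% and 9.36% were called higher in these comparisons. The list was chosen with earlier results of these data known. Klf6, a zinc-finger factor, was at 7.42 ± 1.28 CPM in control, 10.6 ± 0.590 in model and 59.1 ± 7.22 in treated livers (SD, n = 3), and rose by 2.48 on the log2 scale from model to treated (edgeR adjusted p = 5.59e-05). Atf3, a stress-induced factor, was at 1.12 ± 0.386, 2.53 ± 0.157 and 29.3 ± 4.64 CPM and rose by 3.53 from model to treated (edgeR adjusted p = 5.59e-05). Elk3 (-1.21) and Ets1 (-0.92), ETS factors that endothelial cells also express, were the ones that fell from control to treated (edgeR adjusted p of 0.00414 and 0.00448).

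Between control and model, Ccnd1 (log2 1.73, edgeR adjusted p = 0.0152) and Atf3 (1.17, edgeR adjusted p = 0.0491) rose and the immediate early gene Fos fell (-1.84, edgeR adjusted p = 0.0377). That count of 3 ran from 0 to 2 over the fits that each left out 1 library: it was 0 without control replicate 3, model replicate 2 or model replicate 3, and 1 without control replicate 1, model replicate 1 or treated replicate 2. From model to treated, 12 to 15 genes of this list were called in those fits, and from control to treated 15 to 17. Whether the list and the 10 genes differ was not tested.

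Without model replicate 1, 3 of the 6 pathway genes named by smallest p between model and control were still called, and 10 of the 13 between treated and model. Dusp1 and Dusp2 are not counted here. Those lost between model and control were Kdr (log2 -1.74, edgeR adjusted p = 0.12), Atf3 (1.20, 0.101) and Fos (-1.72, 0.116), while Tek (-1.66), Dusp8 (2.57) and Ccnd1 (1.86) were kept. Those lost between treated and model were Axl, Vegfa (-0.50, edgeR adjusted p = 0.0572) and Lrig3 (-0.67, 0.0941). The kept ones were Fgfr3 (-0.91), Erbb3 (-0.76), Tgfa (1.02), Gas6 (0.72), Mapk3 (0.68), Nras (0.55), Dusp8 (3.41), Dusp16 (0.98), Klf6 (2.43) and Atf3 (3.51). The log2 fold changes of all of them kept their sign.

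**Figure D4:**
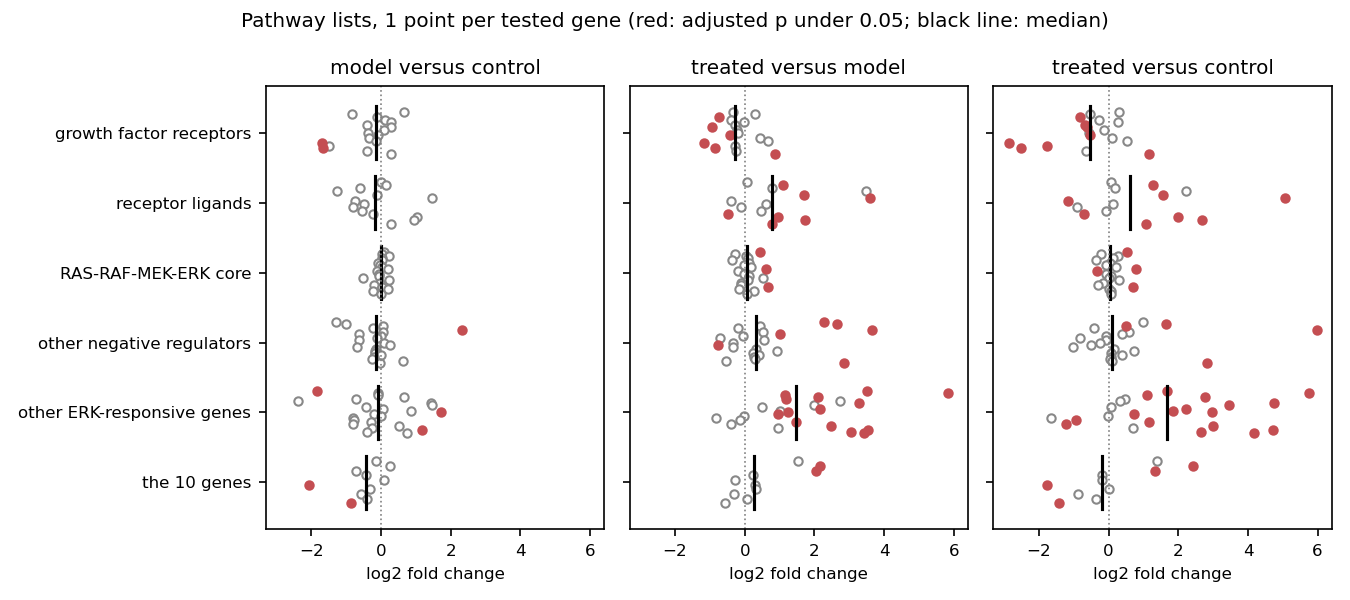
Log2 fold change (horizontal axis) of every tested gene of the 5 pathway lists and of the 10 genes in the 3 comparisons, 1 point per gene, red where the edgeR adjusted p is under 0.05, with the list median as a black line. The other ERK-responsive genes lie mostly above 0 in treated livers, with medians of 1.46 and 1.67, while the 10 genes lie on both sides.

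Markers of other liver cell types moved with the groups. In bulk RNA, fewer cells of a type and less RNA per cell cannot be told apart. The 14 endothelial markers, Kdr and Tek among them, summed to 390.7 to 498.8 CPM in controls, 176.6 to 201.6 in model and 102.8 to 153.2 in treated libraries. Between model and control 7 of the 14 were called lower, and between treated and control 14 of 14. Of all genes tested, 0.596% were called lower between model and control, and 9.36% higher and 8.47% lower between treated and control. Spry4 and Phlda1 were low in the same groups, and the part of endothelial RNA in their values was not tested. No marker of this list was at 0 in any group.

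Some markers of macrophages and of matrix-producing cells were also high in the treated libraries, where Dusp5 and Dusp6 were high. The 12 macrophage markers summed to 177.9 to 281.3 CPM in controls, 263.0 to 329.6 in model and 768.4 to 788.4 in treated libraries. Of the 12, 6 were called higher in treated than in control (Cd68, Marco, Mpeg1, Gpnmb, Trem2 and Cd14). Gpnmb (mean 1.56 CPM in control and 254.4 in treated) and Mpeg1 (28.9 and 183.3) carried much of the rise of the sum. Clec4f, Vsig4 and Timd4, markers of resident Kupffer cells, were not called, with log2 fold changes of 0.13, 0.23 and -0.43. Adgre1 (0.11), Csf1r (0.56) and Cd163 (-2.05) were not called either. The 12 stellate cell and fibroblast markers summed to 266.0 to 349.2, 202.7 to 237.1 and 448.6 to 530.4 CPM, with 4 called higher and 2 lower in treated than in control. In a split made after these values were seen, the collagens Col1a1, Col1a2 and Col3a1 summed to 37.5 to 72.1 CPM in controls, 36.9 to 54.8 in model and 223.4 to 316.4 in treated libraries. The other 9 markers summed to 228.5 to 278.3, 165.8 to 182.3 and 214.0 to 235.4 CPM, so treated and control overlapped without the collagens. Lrat, which stores retinoid in stellate cells, and the pericyte gene Rgs5 were the ones called lower (log2 -1.34 and -0.80, edgeR adjusted p of 0.00255 and 0.00425). All 8 proliferation markers were higher in treated than in control, with sums of 53.0 to 89.7 against 17.8 to 22.8 CPM, and model libraries held 22.4 to 35.8. Skeletal muscle markers were high in the treated libraries as well, as given above. The part of any of these cells in the Dusp5 and Dusp6 values was not tested.

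Neutrophil markers summed to 3.32 to 6.23 CPM in controls, with Ly6g and Mmp8 at 0, to 13.4 to 25.7 in model and to 11.0 to 124.9 in treated libraries. Lymphocyte markers (4.50 to 11.1, 9.99 to 11.3 and 5.30 to 9.54 CPM) and cholangiocyte markers (49.2 to 64.1, 41.5 to 68.6 and 52.0 to 75.5 CPM) overlapped between control and treated. Hepatocyte markers summed to 90060 to 101100 CPM in controls, 89360 to 93250 in model and 68300 to 84590 in treated libraries. Of the 10, 0 were called higher and 4 lower in treated than in control, and 1 higher and 2 lower in treated than in model. Cyp2e1 (log2 -1.15), Serpina1a (-0.82), Ass1 (-0.57) and Ttr (-0.43) were the ones called lower in treated than in control. Their edgeR adjusted p were 0.00541, 0.00107, 0.0416 and 0.0468. Alb, the largest part of the sum, was not called between treated and control (log2 -0.23). Hnf4a (0.04), Tat (1.39), Apoa1 (-0.12), Cps1 (-0.22) and Fah (-0.39) were not called either.

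**Figure D5:**
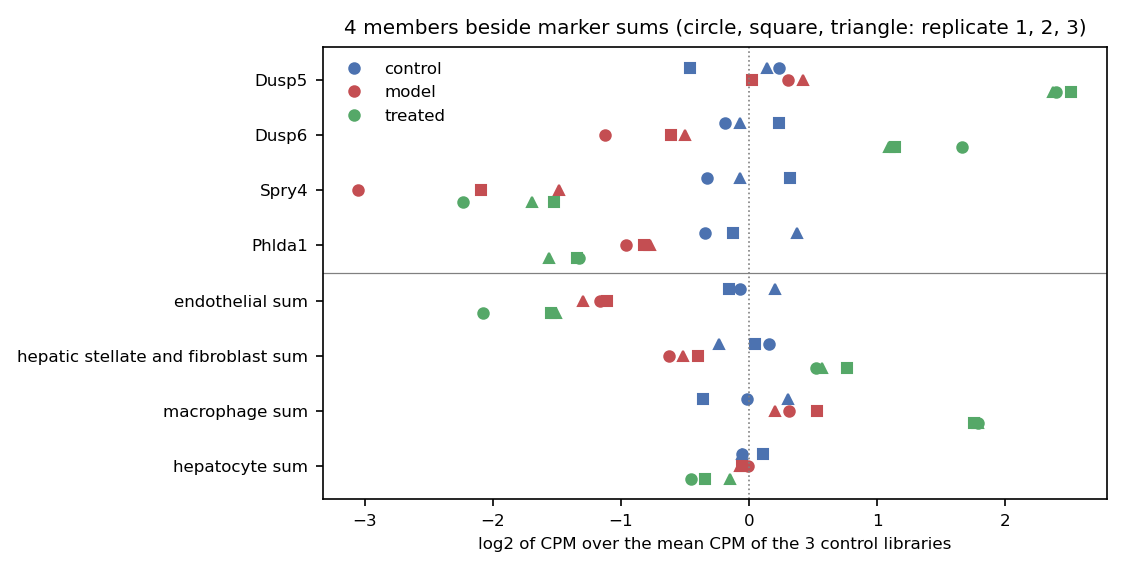
Log2 of CPM over the mean CPM of the 3 control libraries (horizontal axis) for Dusp5, Dusp6, Spry4 and Phlda1 and, under the line, for summed markers of 4 cell types, with 1 symbol per library. Spry4, Phlda1 and the endothelial sum lie to the left of all controls in model and treated livers. Dusp5, Dusp6, the stellate and fibroblast sum (through its collagens) and the macrophage sum (much of it Gpnmb and Mpeg1) lie to the right in treated livers.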

How the data were processed

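RNA was extracted with TRIzol and sequenced on an Illumina platform, per the labels. HISAT2, a spliced aligner, is named without a version in the submitters' processing notes. For the quantifier, its strand setting, the annotation and the genome build, nothing is stated in the sources used here. All 10 genes had the coordinates of GENCODE M21 (GRCm38). The deposited gene counts were treated as estimated counts, since they equal FPKM times transcript length times a library constant, rounded up. FPKM values deposited by the authors were used for levels between genes.

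The 9 libraries were fitted together by group with edgeR 4.0.16 in R 4.3.3 (TMM factors 0.905 to 1.14, filterByExpr with a minimum count of 10 and total of 15, robust quasi-likelihood), which kept 18113 genes and all 10 members. P-values were adjusted over all of them. Alternatives used DESeq2 1.42.0, limma 3.58.1 on counts (voom) or on log2(FPKM + 0.1) and log2(FPKM + 1), other scalings and filters, and each library left out. The code was tested on simulated data. All 10 genes are named. From each pathway list the text names, per comparison and direction, the 2 called genes with the smallest p. Egfr, Dusp1, Dusp2, Dusp3, Dusp7 and Dusp10 are named besides. Likeness was ranked by Pearson's r of log2 CPM. The members and lists were chosen with earlier results of these data known.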

Additional observations from a re-analysis of the deposited data

How the results depend on the processing

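Dusp5, Dusp6, Spry4 and Phlda1 between treated and control, and Dusp5 and Dusp6 between treated and model, stayed past the threshold in the same direction in all 19 alternatives. On log2(FPKM + 1), which understates low genes, Dusp5 rose by 1.16 from model to treated and Spry4 changed by -0.97 from control to model. Of 561 values of the 10 genes over all comparisons and alternatives, 508 kept direction and side of the threshold, 14 lost their call, 8 gained one and 31 changed sign. The 2 genes called between model and control came to 1 (Spry4) with limma-voom, log2(FPKM + 0.1), log2(FPKM + 1), only these groups fitted, or the replicate block, and to 0 to 2 when a library was left out. It was 0 without control replicate 2, control replicate 3 or model replicate 2. The 202 genes called in all between model and control came to 871 with DESeq2, 115 and 103 on log2(FPKM + 0.1) and log2(FPKM + 1), 120 with the replicate block and 54 to 213 with a library left out (54 without model replicate 2). The 1748 between treated and model came to 2742 with DESeq2 and to 882 (without model replicate 1) to 1660. The causes were not tested. On log2(FPKM + 0.1) and log2(FPKM + 1), which carry no TMM factor, the median of all genes shifted by 0.171 and 0.147 between treated and model and by 0.218 and 0.189 between treated and control. The share of calls that were higher was then 80.6% and 82.0% in place of 53.9%, and 79.1% and 79.6% in place of 52.5%. The sign changed only for genes with no call. Between treated and control these were Spred1 (0.0 with RLE scaling and with DESeq2, 0.01 with only these groups, 0.19 and 0.14 on the FPKM scales, -0.19 to 0.08 with a library left out), Spry1 (0.01 on both FPKM scales, -0.38 to 0.01), Spry2 (0.02 and 0.01, -0.47 to 0.05) and Etv5 (-0.54 to 0.03). Between treated and model these were Etv4 (0.73 with limma-voom, 0.17 with the replicate block, -0.90 to 0.55 with a library left out), Spry1 (-0.02 to 0.52), Spry4 (-0.03 to 0.71) and Etv5 (-0.10 to 0.23), and between model and control Dusp4 (-1.75 to 0.45), Spry2 (-0.14 to 0.36) and Etv4 (-1.42 to 0.01). Control, model and treated libraries share replicate numbers. Deviations of same-numbered libraries correlated at -0.079 to 0.0636, and control replicate 1 correlated best with model replicate 3 (0.0652). Whether a shared replicate number pairs libraries was not tested. With that number as a replicate block, 2 of the 10 genes and 1245 of all genes were called between treated and model, and 4 and 2611 between treated and control. Depth limits Dusp4 and Etv4, with 253 and 120 counts over all libraries.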
